A study of Mus musculus with 7 samples.

Results

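Glycolysis in the retina was followed through 10 genes: the glucose transporter gene Slc2a1, the hexokinase genes Hk1 and Hk2, Gpi1, Pfkp, Aldoc, Pgk1, Eno1, Pkm and Ldha. They were taken by gene name from the table of 54532 genes, each name matched 1 row, and all 10 passed the filter of a mean of at least 1 FPKM (fragments per kilobase of gene model, scaled to sequencing depth) that left 15472 genes to test. Polyadenylated RNA was sequenced from mouse eye samples in 7 libraries: 3 from Agbl5 knockout, 2 from heterozygous and 2 from wildtype mice. Agbl5 encodes CCP5, an enzyme that takes glutamate side chains off tubulin, and the series asked what its loss does in photoreceptors. The heterozygous and wildtype libraries together are called all controls, and no further allele, treatment, strain or age was given in the labels for any group. The tissue label named the eyeball, while the extraction protocol named the retina, and the labels did not say whether libraries of a genotype came from separate animals. P-values then measure the spread between these libraries, which may be technical.

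The libraries held 12244707 to 14339701 recovered whole reads each. Agbl5 itself stood at 1.26 to 1.73 FPKM in knockout libraries, against 4.21 to 5.34 FPKM in heterozygous and 8.57 to 9.89 FPKM in wildtype libraries. The summed level of 7 cone photoreceptor genes ran from 463 to 583 FPKM over the 7 libraries, and the pigment epithelium gene Rpe65 from 3.75 to 12.9 FPKM. Knockout 1 and heterozygous 1 stood apart by lens transcripts: the mean log2 level of 9 lens genes was 7.77 and 7.03 there and 0.91 to 2.12 in the other libraries. Knockout 3 and wildtype 2 stood apart by Xist, at 158 and 181 FPKM, against at most 0.0381 FPKM in the others. The Y-linked gene Ddx3y was at 0.0 FPKM in these 2 and at 15.3 to 17.7 FPKM in the others, the pattern of female and male samples. Both heterozygous libraries were of the male pattern. Knockout 3 of the 3 knockout and wildtype 2 of the 2 wildtype libraries were of the female pattern. No comparison is therefore balanced for sex.

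Glycolysis splits glucose into pyruvate in the cytosol and yields a little ATP. Retina is a classic tissue of aerobic glycolysis: photoreceptors take up glucose that reaches them through the pigment epithelium and turn much of it into lactate even where oxygen is present. Hexokinase traps glucose in the cell, phosphofructokinase commits it to the pathway, pyruvate kinase makes pyruvate and lactate dehydrogenase regenerates the cofactor NAD+. Many of these genes are textbook targets of the hypoxia-inducible factor HIF, whose core site is ACGTG or GCGTG.

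RefSeq start sites (GRCm38.p6) were found for all 10 genes, in 16 windows of 250 bases before a start. ACGTG or its other-strand form CACGT, which overlap in the E-box CACGTG, stood in 5 of the 16 windows and in 16.6% of all 32851 windows of this length. The genes with a match were Slc2a1, Hk2, Ldha, Pgk1 and Pkm, 5 of 10, where 18.5% of all genes had a match. TAATCC or GGATTA, the core letters bound by the photoreceptor factor CRX, stood in 3 of the 16 windows and in 6.25% of all windows. These belonged to Aldoc, Ldha and Pfkp, 3 of 10 genes, where 7.21% of all genes had a match. Printed here are a window of Hk1, whose level set knockout apart, and those of Hk2, Ldha, Pgk1, Gpi1 and Pfkp, which varied together between libraries. They were chosen after the values were seen. Each runs 5′ to 3′ on the strand of its gene, with ACGTG and CACGT in capitals.
Hk1 (chr10:62379909-62380158, minus strand): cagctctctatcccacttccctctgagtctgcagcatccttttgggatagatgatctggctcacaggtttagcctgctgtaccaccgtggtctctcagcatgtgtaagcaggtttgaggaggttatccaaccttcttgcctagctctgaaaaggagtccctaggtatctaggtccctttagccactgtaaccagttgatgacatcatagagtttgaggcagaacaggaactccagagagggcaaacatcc
Hk2 (chr6:82774455-82774704, minus strand): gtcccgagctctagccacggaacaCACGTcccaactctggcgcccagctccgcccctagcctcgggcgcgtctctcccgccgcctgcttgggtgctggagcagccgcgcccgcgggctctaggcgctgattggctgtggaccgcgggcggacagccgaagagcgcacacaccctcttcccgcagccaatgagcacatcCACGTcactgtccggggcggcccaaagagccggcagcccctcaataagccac
Ldha (chr7:46845554-46845803, plus strand): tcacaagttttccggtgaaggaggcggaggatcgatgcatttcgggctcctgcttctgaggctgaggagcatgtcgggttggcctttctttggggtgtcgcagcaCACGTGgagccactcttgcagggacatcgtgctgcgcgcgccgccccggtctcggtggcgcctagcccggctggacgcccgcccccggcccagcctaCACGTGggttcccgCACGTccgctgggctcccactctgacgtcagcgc
Pgk1 (chrX:106186850-106187099, plus strand): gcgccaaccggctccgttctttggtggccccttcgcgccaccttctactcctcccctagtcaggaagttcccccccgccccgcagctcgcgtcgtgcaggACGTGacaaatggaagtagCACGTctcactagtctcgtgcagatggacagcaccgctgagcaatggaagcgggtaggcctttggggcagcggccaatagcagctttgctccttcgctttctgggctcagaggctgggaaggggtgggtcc
Gpi1 (chr7:34230337-34230586, minus strand): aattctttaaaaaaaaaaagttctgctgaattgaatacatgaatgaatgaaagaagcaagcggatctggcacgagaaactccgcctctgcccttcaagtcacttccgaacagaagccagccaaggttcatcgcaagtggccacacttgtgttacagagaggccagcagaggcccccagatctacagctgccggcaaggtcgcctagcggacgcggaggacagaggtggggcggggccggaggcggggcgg
Pfkp (chr13:6648772-6649021, minus strand): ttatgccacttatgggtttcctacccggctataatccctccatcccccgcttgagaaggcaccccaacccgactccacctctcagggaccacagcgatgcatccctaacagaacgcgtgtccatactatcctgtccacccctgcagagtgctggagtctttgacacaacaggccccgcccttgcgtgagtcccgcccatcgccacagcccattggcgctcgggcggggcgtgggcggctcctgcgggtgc
Hk2 and Pgk1 had 2 matches each and Ldha 5, while the windows of Gpi1 and Pfkp had none. Hk1 had no match in this window or in its other RefSeq window. Only the ACGTG form of the HIF core, on either strand, was counted. A window without a match can hold GCGTG, as the Pfkp window and the other Hk1 window do. A match is a run of letters and was not tested as a binding site.

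By length-scaled level the genes fell in the order Pkm, Eno1, Ldha, Pgk1, Aldoc, Gpi1, Pfkp, Hk2, Slc2a1 and Hk1, with means over the 7 libraries from 508 FPKM for Pkm to 69.2 FPKM for Hk1. Even Hk1 stood above 97.4% of the tested genes. Pkm was above Eno1, Eno1 above Ldha, Pgk1 above Aldoc and Gpi1 above Pfkp with no overlap of their 7 libraries. The other neighbours overlapped: Aldoc was above Gpi1 in 3 of 7 libraries, Hk2 above Slc2a1 in 6 and Slc2a1 above Hk1 in 5. Ldha was above Pgk1, and Pfkp above Hk2, in every library, although their ranges overlapped. Mouse genomes carry processed copies of several of these genes, and the deposited values do not show how reads shared with such copies were counted. Gapdh was listed at 9.10 to 12.7 FPKM beside 197 to 270 FPKM for Tpi1, which acts 1 step before it, and the reason was not tested. Eno1b, a close copy of Eno1, was listed at 33.0 to 42.3 FPKM, and the level of Eno1 is uncertain where the pair share reads.

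**Figure D1:**
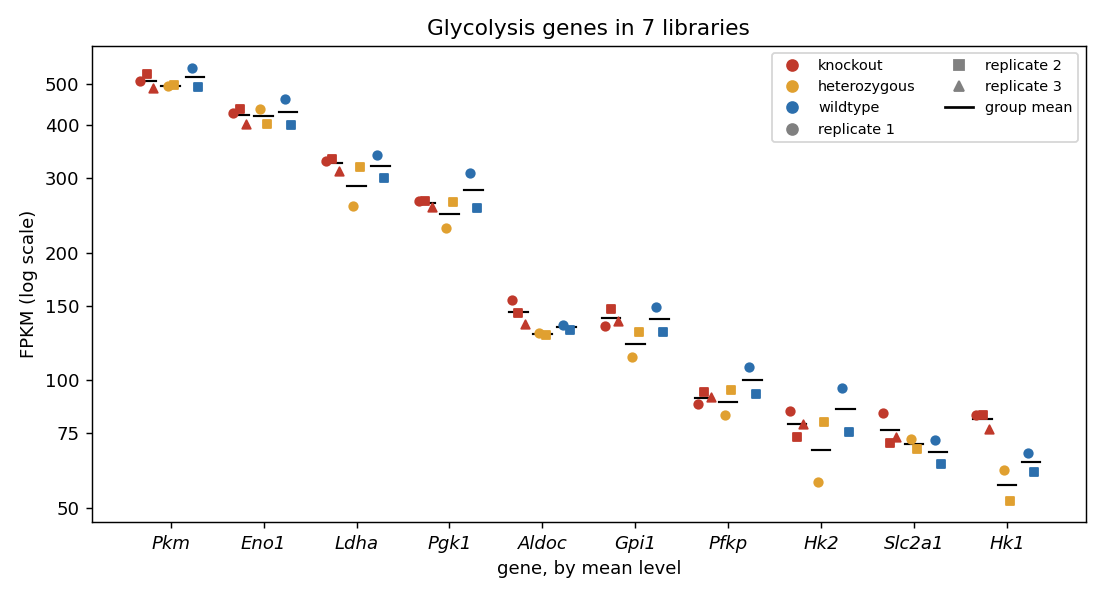
FPKM (log axis) of the 10 glycolysis genes, ordered by mean level, with 1 point per library coloured by genotype and shaped by replicate number, and a bar at each group mean. Hk1, at the right, has its 3 knockout libraries at 76.9 to 82.9 FPKM, above all 4 control libraries, and Hk2 has overlapping genotypes.

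None of the 10 genes passed the test in any comparison. Limma called 0 of 10 in knockout against wildtype, where 0.323% of all tested genes were called at an adjusted p under 0.05. It called 0 of 10 against heterozygous (0.317% of all tested genes), 0 of 10 against all controls (0.614%) and 0 of 10 in heterozygous against wildtype (0.0%). At an unadjusted p under 0.05 the counts were 1 of 10 in knockout against wildtype (7.5% of all tested genes), 2 against heterozygous (12%), 2 against all controls (12.2%) and 0 in heterozygous against wildtype (4.0%). Voom on recovered reads, another form of the limma test, called 0 against wildtype (0.52% of the 14796 genes it tested), 1 against heterozygous (0.52%), 1 against all controls (1.0%) and 0 in heterozygous against wildtype (0.0%). The gene it called was Hk1 both times. The comparisons share libraries and are not independent of each other.

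Groups that did not overlap were counted as well. All knockout libraries were above both wildtype libraries for 2 of 10 genes (13.5% of all tested genes) and below them for 0 (14.7%). Against heterozygous the counts were 3 above (15.3%) and 0 below (14.5%), and against all controls 2 above (6.75%) and 0 below (6.26%). Heterozygous libraries were above wildtype for 0 of 10 (14.3%) and below for 2 (15.7%). The genes above were Hk1 and Aldoc, joined by Gpi1 against heterozygous.

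Hk1 and Hk2 encode the hexokinases that phosphorylate glucose, the step after its entry. Hk1 is the form of most neural tissue and binds mitochondria, and Hk2 is the form for which photoreceptors are known. Hk1 (ENSMUSG00000037012, minus strand of chromosome 10, 62268855 to 62379908 in GRCm38, with 8532 exonic bases) stood at 82.9, 82.7 and 76.9 FPKM in knockout 1, 2 and 3, against 61.5 and 52.0 FPKM in heterozygous 1 and 2 and 67.3 and 60.8 FPKM in wildtype 1 and 2. Every knockout library was above every control library. Of the lens-rich libraries, knockout 1 stood at 82.9 FPKM and heterozygous 1 at 61.5 FPKM. Of those with Xist, knockout 3 stood at 76.9 FPKM and wildtype 2 at 60.8 FPKM. These pairs follow from the separation of all libraries and add nothing to it. The part of lens content or of the Xist difference in the level of Hk1 was not tested. The mean was 80.9 ± 3.39 FPKM in knockout (SD, n = 3), 56.8 ± 6.70 in heterozygous (n = 2) and 64.1 ± 4.58 in wildtype (n = 2). On the log2(FPKM + 1) scale the difference was 0.42 ± 0.09 against all controls (SE; limma, 95% interval 0.22 to 0.62, adjusted p = 0.114). It was 0.51 ± 0.09 against heterozygous (0.29 to 0.72, adjusted p = 0.143) and 0.33 ± 0.09 against wildtype (0.12 to 0.55, adjusted p = 0.428). With voom the adjusted p was 0.0263, 0.0288 and 0.207 for the 3 comparisons, so against all controls and against heterozygous the side of the threshold depended on the model. Over all 18 alternatives the difference from all controls stayed between 0.30 and 0.47, with adjusted p from 0.0263 to 0.389. Hk1os, on the opposite strand, overlaps 157 bases of the exons of Hk1, and the library kit did not mark the strand.

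Hk2 (ENSMUSG00000000628, chromosome 6, 82725025 to 82774454) stood at 84.5, 73.5 and 79.0 FPKM in knockout, against 57.6 and 79.6 FPKM in heterozygous and 96.1 and 75.5 FPKM in wildtype libraries. The genotypes overlapped, and wildtype 1 and heterozygous 1 marked the highest and the lowest library. It differed from all controls by 0.05 ± 0.15 (limma, 95% interval -0.31 to 0.41, adjusted p = 0.915), the widest interval of the 10 genes. Hk1 thus made up 49.5%, 53.0% and 49.4% of the summed hexokinase FPKM of Hk1 and Hk2 in knockout, against 51.7% and 39.5% in heterozygous and 41.2% and 44.6% in wildtype libraries. Heterozygous 1 lay among the knockout libraries in this share, through its low Hk2.

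Markers of reactive glia and of microglia moved with genotype beside Hk1. Against all controls, 0.614% of all tested genes were called. Of 7 genes listed for reactive glia and injury (Gfap, Serpina3n, Edn2, Fgf2, Stat3, A2m and Lcn2), 6 were called higher in knockout than in all controls, and their summed level was 122 to 145 FPKM in knockout and 22.2 to 32.7 FPKM in control libraries. Edn2, known in mouse retina as a signal of injured photoreceptors rather than of glia, made up 50.9 to 60.1 FPKM in knockout and 1.47 to 3.10 FPKM in control libraries. The other 6 genes summed to 71.1 to 84.6 FPKM in knockout and 19.2 to 29.6 FPKM in control libraries. Of 8 microglia genes 6 were tested and 4 called higher, with sums of 31.6 to 36.3 FPKM in knockout and 15.9 to 17.5 FPKM in control libraries. The sum of 7 cone genes was 463 to 501 FPKM in knockout and 494 to 583 FPKM in control libraries, which overlap, with 0 called by limma. Mueller glia identity genes, 8 in all, summed to 1327 to 1476 FPKM in knockout and 1288 to 1408 FPKM in control libraries, with 0 called. The part of these cells in the level of Hk1 was not tested. In whole tissue, fewer cells of a type and less RNA per cell cannot be told apart.

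**Figure D2:**
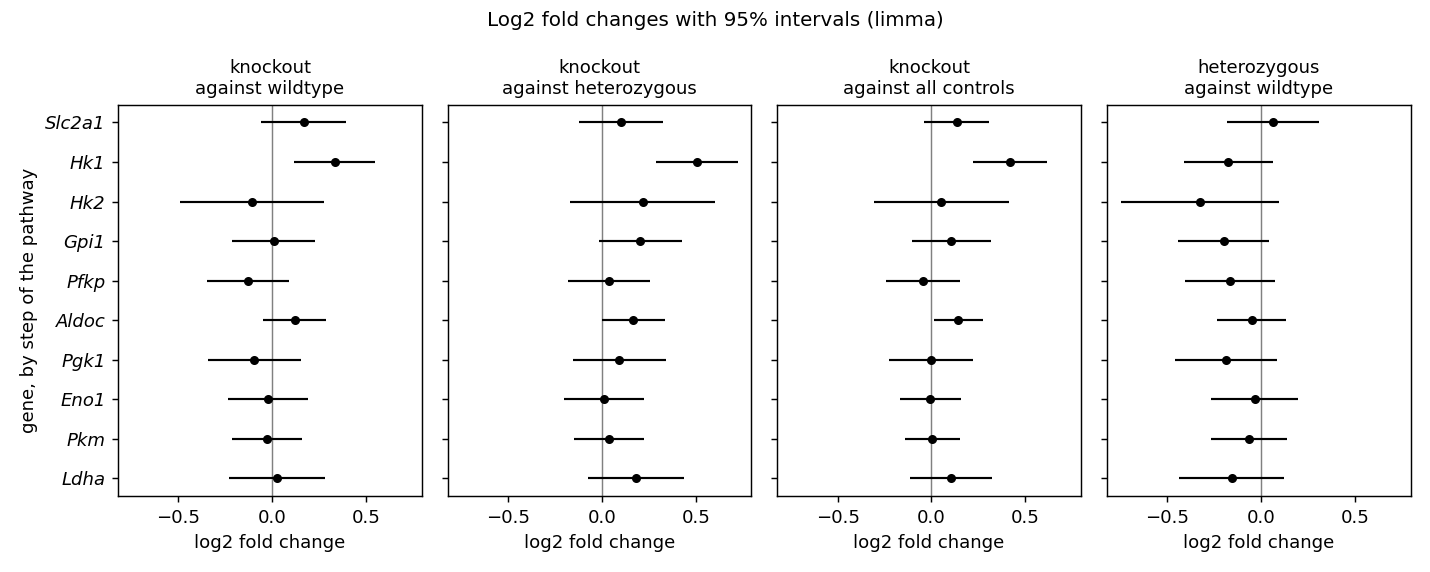
Log2 fold changes of the 10 genes (horizontal axis, log2(FPKM + 1) scale, limma) with 95% intervals as bars, 1 panel per comparison, genes ordered from glucose entry at the top to lactate at the bottom. The interval of Hk1 lies above 0 in the 3 knockout panels (0.22 to 0.62 against all controls), and no gene passed after adjustment over all genes.

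Slc2a1 encodes GLUT1, the transporter through which pigment epithelium, Mueller glia and photoreceptors take up glucose. It (ENSMUSG00000028645, chromosome 4, 119108711 to 119137983) stood at 83.9, 71.3 and 73.4 FPKM in knockout, against 72.6 and 68.9 FPKM in heterozygous and 72.2 and 63.3 FPKM in wildtype libraries. The groups overlapped, with knockout 1 the highest library and wildtype 2 the lowest. The difference from all controls was 0.13 ± 0.08 (limma, 95% interval -0.04 to 0.31, adjusted p = 0.51).

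Gpi1 encodes glucose-6-phosphate isomerase, and Pfkp the platelet-type subunit of phosphofructokinase, the pathway's main control point. Gpi1 (ENSMUSG00000036427, chromosome 7, 34201330 to 34230336) stood at 134, 148 and 138 FPKM in knockout, against 114 and 129.8 FPKM in heterozygous and 149 and 130.2 FPKM in wildtype libraries. The knockout libraries were above both heterozygous libraries and overlapped wildtype. The difference from heterozygous was 0.20 ± 0.09 (limma, 95% interval -0.02 to 0.42, adjusted p = 0.436), and from wildtype 0.01 ± 0.09 (-0.21 to 0.23, adjusted p = 0.992). Pfkp (ENSMUSG00000021196, chromosome 13, 6579768 to 6648777) stood at 87.7, 94.0 and 91.6 FPKM in knockout, against 82.7 and 95.2 FPKM in heterozygous and 107 and 92.6 FPKM in wildtype libraries. Its genotypes overlapped (-0.13 ± 0.09 against wildtype, limma, 95% interval -0.35 to 0.09, adjusted p = 0.809). Exons of Pitrm1 overlap 748 bases of Pfkp and those of a predicted gene 741 bases of Gpi1, on the opposite strand in both cases, so these levels are uncertain without strand.

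Aldoc encodes the aldolase known from brain and astrocytes. It (ENSMUSG00000017390, chromosome 11, 78322968 to 78327781) stood at 155, 144 and 136 FPKM in knockout, against 129 and 128 FPKM in heterozygous and 135 and 132 FPKM in wildtype libraries. Every knockout library was above every control library, with knockout 3 and wildtype 1 the closest. The mean was 145 ± 9.35 FPKM in knockout (SD, n = 3), 129 ± 0.798 in heterozygous (n = 2) and 133 ± 2.30 in wildtype (n = 2). The difference from all controls was 0.14 ± 0.06 (limma, 95% interval 0.01 to 0.27, adjusted p = 0.373), from heterozygous 0.17 ± 0.07 (0.00 to 0.33, adjusted p = 0.414) and from wildtype 0.12 ± 0.07 (-0.05 to 0.28, adjusted p = 0.78; -0.04 on the TPM scale). The reactive glia sums given beside Hk1 separated the same libraries, and their part in the level of Aldoc was not tested either.

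In the lower pathway the coefficient of variation over the 7 libraries was 4.30% for Pkm, 5.39% for Eno1 and 8.99% for Pgk1, against 17.3% for Hk1. Pgk1 encodes the kinase that makes ATP from 1,3-bisphosphoglycerate, Eno1 the common enolase, and Pkm the pyruvate kinase whose M1 and M2 forms come from alternative exons that a gene-level value cannot separate. Pgk1 (ENSMUSG00000062070, chromosome X, 106187100 to 106203699) stood at 265, 265 and 256 FPKM in knockout, against 229 and 264 FPKM in heterozygous and 309 and 255 FPKM in wildtype libraries. Eno1 (ENSMUSG00000063524, chromosome 4, 150236721 to 150248879) stood at 428, 438 and 404 FPKM in knockout, against 437 and 404 FPKM in heterozygous and 461 and 400.1 FPKM in wildtype libraries. Pkm (ENSMUSG00000032294, chromosome 9, 59656368 to 59679375) stood at 509, 529 and 489.9 FPKM in knockout, against 494 and 498 FPKM in heterozygous and 547 and 491 FPKM in wildtype libraries. In all 3 the genotypes overlapped and wildtype 1 was the highest library. Their differences from all controls were -0.00 ± 0.10 for Pgk1, -0.01 ± 0.07 for Eno1 and 0.01 ± 0.06 for Pkm (limma, adjusted p = 0.996, 0.983 and 0.983). Exons of the predicted gene Gm49759 overlap 767 bases of Pkm on the same strand, so its level is uncertain to that extent. The 95% interval against all controls was -0.14 to 0.15 for Pkm and -0.17 to 0.16 for Eno1. Against wildtype it was -0.21 to 0.16 for Pkm and -0.23 to 0.19 for Eno1. These intervals rest on the spread between these libraries, which may be technical.

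Ldha encodes the lactate dehydrogenase subunit that turns pyruvate into lactate. It (ENSMUSG00000063229, chromosome 7, 46841475 to 46855627) stood at 330.2, 333 and 313 FPKM in knockout, against 258 and 318 FPKM in heterozygous and 339.8 and 300.3 FPKM in wildtype libraries. The genotypes overlapped and heterozygous 1 was low. The difference from all controls was 0.10 ± 0.09 (limma, 95% interval -0.12 to 0.32, adjusted p = 0.688) and from wildtype 0.03 ± 0.11 (-0.23 to 0.28, adjusted p = 0.969).

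Single libraries moved many of the genes at once. Wildtype 1 was the highest library for 7 of the 10 genes and heterozygous 1 the lowest for 5. The mean deviation of the 10 genes from their own means was 0.12 in wildtype 1 and -0.15 in heterozygous 1 on the log2 scale. The median deviation of all tested genes was 0.01 and -0.00 there. The scaling of the columns holds that median near 0, so it does not show whether such shifts are particular to these genes. In knockout 1, the other lens-rich library, the mean deviation of the 10 genes was 0.08. Leaving these libraries out moved the counts of signs. Against heterozygous all 10 genes were higher in knockout (median 0.14, all tested genes 0.01), and the count was 7 of 10 on the TPM scale and 7 of 10 without heterozygous 1 (median 0.05). Against wildtype 5 were higher and 5 lower in knockout (median -0.01, all tested genes -0.00). The count was 2 higher on the TPM scale, where all tested genes shifted by -0.16, and 9 higher without wildtype 1 (median 0.09). In heterozygous against wildtype 9 of 10 were lower (median -0.16, all tested genes -0.01). Aldoc and Gpi1 alone did not overlap there, both lower in heterozygous.

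**Figure D3:**
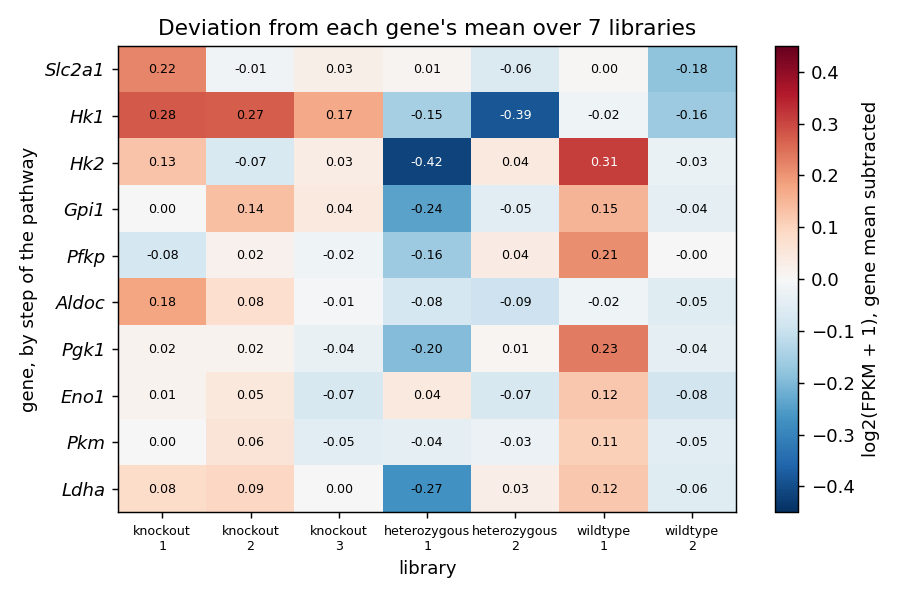
Log2(FPKM + 1) of each gene minus its mean over the 7 libraries, with genes down the page in pathway order and libraries across, red above and blue below the mean. Hk1 is above its mean in the 3 knockout libraries, wildtype 1 is raised and heterozygous 1 lowered in several other genes, Hk2 most of all.

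Across the 7 libraries the genes did not follow each other evenly. Pearson's r between pairs had a median of 0.44 over 45 pairs and ran from -0.26 to 0.93, given as a description over libraries that share scaling and genotype. The highest were Pfkp with Pgk1 at 0.93, Hk2 with Pgk1 at 0.92, Gpi1 with Ldha at 0.92, Hk2 with Ldha at 0.89, Hk1 with Aldoc at 0.87, Pgk1 with Ldha at 0.85 and Gpi1 with Pgk1 at 0.84. Hk1 with Hk2 stood at 0.20. Slc2a1 had the lowest median r with the other genes, at 0.21. Outside the pathway, the tested genes whose 7 levels ran most like the mean of the 10 were D11Wsu47e (r = 0.99), Ift122 (0.99), Lzts2 (0.98), Bop1 (0.98) and Mab21l1 (0.98). For Aldoc they were Puf60 (0.98), Glrx5 (0.98) and Sgsm2 (0.98), and for Hk2 Grina (0.99), Snx32 (0.97) and Sfxn3 (0.97). They were picked as the highest r among 12485 genes, over 7 libraries.

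Ratios of isozymes within a library do not depend on its scaling, and 7 were compared between 3 knockout and 4 control libraries. A two-sided exact permutation test over the 35 splits cannot go below p = 0.0571 here. Pfkp over Pfkl, the liver-type phosphofructokinase, reached it, at 1.39, 1.52 and 1.46 in knockout, against 1.80 and 1.88 in heterozygous and 1.57 and 1.70 in wildtype libraries. Knockout libraries were all lower (log2 difference -0.25, exact p = 0.0571, 0.4 after adjustment over the 7 ratios). Hk2 over Hk1 was 1.02, 0.889 and 1.03 in knockout, against 0.936 and 1.53 in heterozygous and 1.43 and 1.24 in wildtype libraries. Heterozygous 1 overlapped the knockout libraries (-0.37, exact p = 0.171, adjusted 0.6). The 5 other ratios overlapped, with adjusted p of 0.64 to 0.743. Over Slc2a3, the neuronal glucose transporter gene, Slc2a1 averaged 4.75 ± 0.640 in knockout and 4.56 ± 0.465 in all controls (SD, n = 3 and 4). Ldha over Ldhb averaged 3.37 ± 0.182 in knockout and 3.22 ± 0.224 in all controls. Eno1 over the neuronal enolase gene Eno2 averaged 4.02 ± 0.173 in knockout and 4.16 ± 0.322 in all controls. Pfkp over the muscle-type Pfkm averaged 1.85 ± 0.00852 in knockout and 1.92 ± 0.0908 in all controls. Aldoa was the more abundant aldolase, with Aldoc at 0.201 ± 0.0123 of it in knockout and 0.192 ± 0.0195 in all controls.

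**Figure D4:**
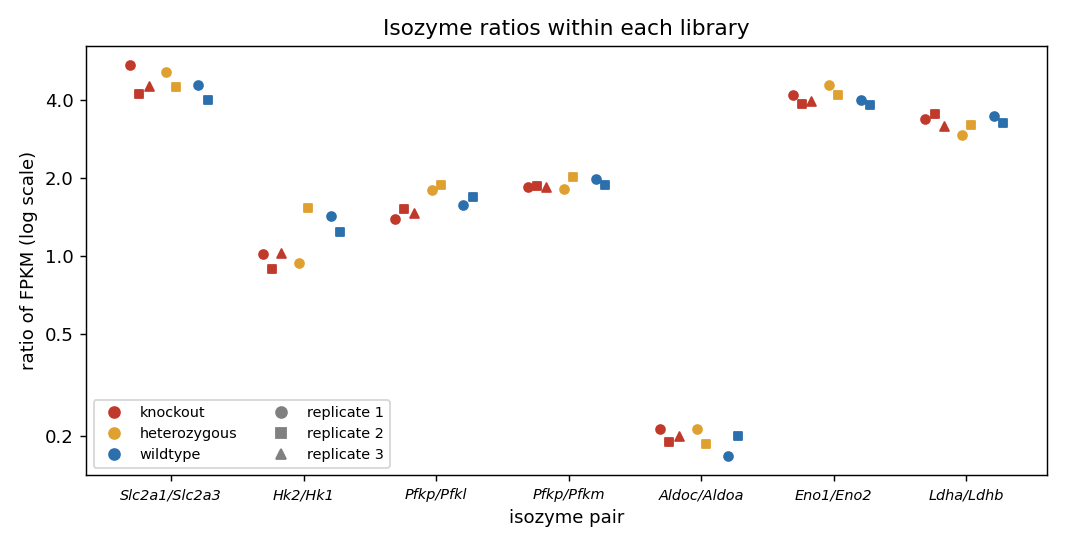
Ratio of FPKM of 2 isozymes within each library (log axis), 1 point per library coloured by genotype and shaped by replicate number. Pfkp over Pfkl is the ratio without overlap, at 1.39 to 1.52 in knockout and 1.57 to 1.88 in control libraries, and heterozygous 1 sits with the knockout libraries for Hk2 over Hk1.

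The wider pathway was read from a list of 54 other genes, from glucose transport to lactate export, pyruvate entry into mitochondria, regulators and the pentose phosphate branch. Aldoa had 2 gene models, and 45 of the 55 models passed the filter. Limma called 0 of 45 higher and 0 lower in each of the 4 comparisons. At an unadjusted p under 0.05 there were 6 higher and 1 lower in knockout against wildtype (7.5% of all tested genes in either direction), 7 and 2 against heterozygous (12%), 6 and 3 against all controls (12.2%), and 0 and 2 in heterozygous against wildtype (4.0%). The medians were 0.02, 0.12, 0.07 and -0.07 in that order, and those of all tested genes -0.00, 0.01, 0.00 and -0.01. Abundant partners without a call included Aldoa at 606 to 804 FPKM, Bsg, whose product chaperones lactate transporters, at 317 to 372 FPKM, and Pgam1 at 194 to 255 FPKM.

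The lactate transporter genes Slc16a1 and Slc16a8 had the smallest p-values of the list in knockout against wildtype, in opposite directions. Slc16a8 encodes MCT3, the lactate exporter of the pigment epithelium, and stood at 8.07, 5.67 and 7.84 FPKM in knockout, against 4.76 and 3.87 FPKM in heterozygous and 3.09 and 4.37 FPKM in wildtype libraries. Every knockout library was above every control library, by 0.70 ± 0.15 against all controls (limma, adjusted p = 0.129) and 0.79 ± 0.18 against wildtype (adjusted p = 0.303). The mean log2 level of 8 pigment epithelium genes was 3.58, 2.20 and 2.99 in knockout and 1.82 to 3.19 in control libraries, which overlap, and its part was not tested. Slc16a1 encodes MCT1, a widespread lactate transporter, and stood at 44.1, 43.2 and 44.5 FPKM in knockout, against 48.7 and 50.4 FPKM in heterozygous and 50.9 and 55.4 FPKM in wildtype libraries. Knockout libraries were all lower (-0.22 ± 0.05 against all controls, limma, adjusted p = 0.193, and -0.27 ± 0.06 against wildtype, adjusted p = 0.29). Pgls, of the pentose phosphate branch, was close behind (0.33 ± 0.08 against wildtype, limma, adjusted p = 0.317). Its exons share 776 bases with Fam129c on the same strand, so its level is uncertain to that extent. The lactate transporter genes Slc16a3 and Slc16a7 overlapped wildtype (-0.03 ± 0.17 and -0.05 ± 0.12, limma). Slc16a3 was apart from heterozygous (0.32 ± 0.17), and Slc16a7 was not.

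Other genes with small p did not pass either. Bpgm, which makes 2,3-bisphosphoglycerate, stood at 16.8, 16.2 and 14.6 FPKM in knockout and at 11.9 to 13.6 FPKM in control libraries (0.28 ± 0.07, limma, adjusted p = 0.188). Pfkl stood at 63.0, 61.9 and 62.6 FPKM in knockout, against 45.9 and 50.7 FPKM in heterozygous and 68.4 and 54.6 FPKM in wildtype libraries. It was apart from heterozygous (0.37 ± 0.10, limma, adjusted p = 0.295) and overlapped wildtype. Epas1, which encodes HIF-2alpha, stood at 32.0, 31.1 and 32.7 FPKM in knockout, against 28.4 and 25.1 FPKM in heterozygous and 30.6 and 30.8 FPKM in wildtype libraries (0.25 ± 0.07 against heterozygous, limma, adjusted p = 0.296). In heterozygous against wildtype, Pfkl stood at -0.33 ± 0.11 and Epas1 at -0.19 ± 0.07 (limma, adjusted p = 0.974 for both). Nxnl1, the gene of the rod-derived cone viability factor, which acts on glucose uptake of cones, was at 80.7, 90.0 and 84.5 FPKM in knockout, against 108 and 94.9 FPKM in heterozygous and 101 and 89.8 FPKM in wildtype libraries. Knockout 2 and wildtype 2 overlapped (-0.20 ± 0.07 against all controls, limma, adjusted p = 0.338).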

How the data were processed

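The authors deposited 1 table of FPKM per gene and library. The submitters' processing notes list HTSeq, DESeq, TopHat2 (2.0.9) and Bowtie2 (2.0.6), and the builds mm10 and GRCm38. Settings and annotation release are not given in the sources used here. Per the labels' protocols the NEBNext Ultra kit was used, which does not mark strand. Gene models came from GENCODE M21. With their exon lengths, 96.8% of deposited FPKM values above 0 were whole reads within 0.01, and the columns proved to be scaled already by median-of-ratios size factors. The 10 genes held 3151 to 40023 reads per library.

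Log2(FPKM + 1) was fitted for the 15472 genes averaging 1 FPKM or more with limma 3.58.1 (R 4.3.3; empirical Bayes with a mean-variance trend; 3 genotypes, or knockout against all controls), with Benjamini-Hochberg adjustment over all tested genes and a threshold of 0.05. The fit was also run on simulated data in which genes varied independently. That run does not bear on shifts that genes share within a library. Ratios were tested by exact permutation (SciPy 1.17.1). Alternatives changed pseudocount, filter, scaling, covariate, libraries, replicate block and model. The genes and lists were chosen with earlier results of these data known. The text names the 10 genes, called genes, the partners of the ratios and a few fixed genes. From the wider pathway it names the genes with the 2 smallest p per comparison. Pgls, Slc16a3 and Slc16a7 were added beside Slc16a1 and Slc16a8.

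Numbers shared between genotypes were checked for pairing: deviations of same-numbered libraries correlated from -0.0233 to 0.430. Where a genotype has only 2 libraries their deviations mirror each other, so this check cannot decide on pairs. The main fit did not treat same-numbered libraries as pairs. The levels of 1 marker gene, and a sum that holds it, are not reported here.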

Additional observations from a re-analysis of the deposited data

Results flagged for a closer look

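Pkm, the pyruvate kinase gene, had 1 library far from the rest of its group. Its 4 control libraries stood at 494 and 498 FPKM in heterozygous and 547 and 491 FPKM in wildtype mice, and the gap from wildtype 1 to the next library took 0.871 of the whole range, above Dixon's 95% critical value for 4 values. At this limit chance flags about 1 set of values in 20. With 17 sets tested, 10 genes and 7 ratios, the 1 flag found is near what chance alone gives. Wildtype 1 was the highest library for 7 of the 10 genes. Without it, Pkm differed by 0.04 between knockout and all controls, and with it by 0.01 (log2 scale, limma).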

How the results depend on the processing

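Each of 18 alternatives changed 1 choice, and 1 of them, TPM without the most abundant gene model Gm23935, was chosen after seeing the data. Voom on recovered reads called 1 of the 10 genes against heterozygous and 1 against all controls, Hk1 both times; no other alternative called any. Hk1 stayed positive throughout in knockout, between 0.17 and 0.40 against wildtype, 0.39 and 0.63 against heterozygous and 0.30 and 0.47 against all controls. Among all tested genes the alternatives called 3 to 77 in knockout against wildtype (50 in the report), 0 to 77 against heterozygous (49), 38 to 148 against all controls (95) and 0 to 19 in heterozygous against wildtype (0). The cause of the reversals was not tested.

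The TPM scale, on which the median of all tested genes moved by -0.16, -0.07, -0.08 and -0.12 in knockout against wildtype, knockout against heterozygous, heterozygous against wildtype and knockout against all controls, turned the following. Against wildtype these were Gpi1 (-0.16), Aldoc (-0.045) and Ldha (-0.14), against heterozygous Pfkp (-0.049), Eno1 (-0.075) and Pkm (-0.049), and against all controls Hk2 (-0.070), Gpi1 (-0.019), Pkm (-0.12) and Ldha (-0.021). Heterozygous against wildtype turned for Slc2a1 (-0.014, and -0.0076 with lens level as a covariate). TPM without Gm23935 turned Gpi1 (-0.012) against wildtype, Eno1 (-0.0038) against heterozygous and Pkm (-0.011) against all controls. Without both lens-rich libraries Hk2 (-0.063), Pfkp (-0.037) and Pgk1 (-0.019) turned against heterozygous, and Hk2 (-0.13) and Pkm (-0.0077) against all controls. Lens level as a covariate turned Pgk1 (0.0057) against all controls. Against wildtype alone the log2 ratio difference was 0.032 for Eno1 over Eno2 and -0.0054 for Ldha over Ldhb.

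The replicate number as a block leaves 2 residual degrees of freedom with 3 genotypes, 3 against all controls, and no use of knockout 3. With it 0 of 10 genes were called and Hk1 had adjusted p = 0.552, 0.331 and 0.247 (limma; wildtype, heterozygous, all controls). The block turned Eno1 (0.011) and Pkm (0.0011) against wildtype, and Pgk1 (0.015) and Eno1 (0.028) against all controls. It called 3, 0 and 38 of all tested genes in those comparisons, against 50, 49 and 95 without it. Whether the numbers mark pairs was not settled.

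Leaving out 1 library in turn, where a lone library left in a group is assumed to vary like the others, gave ranges that cross 0. Against wildtype they were -0.28 to 0.062 for Hk2, -0.091 to 0.10 for Gpi1, -0.23 to 0.042 for Pgk1, -0.12 to 0.080 for Eno1, -0.10 to 0.051 for Pkm and -0.064 to 0.11 for Ldha. Against heterozygous they were -0.013 to 0.45 for Hk2, -0.063 to 0.14 for Pfkp, -0.010 to 0.19 for Pgk1 and -0.046 to 0.067 for Eno1. Between heterozygous and wildtype they were -0.030 to 0.16 for Slc2a1, -0.14 to 0.069 for Eno1 and -0.14 to 0.014 for Pkm. Against all controls they were -0.078 to 0.17 for Hk2, -0.11 to 0.016 for Pfkp, -0.067 to 0.076 for Pgk1, -0.034 to 0.034 for Eno1 and -0.022 to 0.042 for Pkm. The log2 ratio differences ran from -0.050 to 0.14 for Slc2a1 over Slc2a3 and from -0.085 to 0.0011 for Eno1 over Eno2. Counting error was at most 1.78% per gene and library.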
